A study of Homo sapiens with 3 samples.

Results

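Receptor tyrosine kinases are single-pass membrane proteins that bind a ligand outside the cell and carry a tyrosine kinase domain inside it. The genes described here are the 48 receptors of this class outside the EGFR family and the TAM and MET receptors, chosen by gene symbol from 22824 genes and grouped by ligand and sequence into 18 families or single receptors. RNA of MDA-MB-231 was measured by RNA sequencing in 3 libraries, labelled biological replicates 1 to 3 of a single group. MDA-MB-231 is a human cell line from a triple-negative breast cancer of basal, mesenchymal character, and the labels record its p53 change as R280K. All cultures received a control siRNA (siCTRL) at 50 nM with a lipid reagent in 2 transfections 24 h apart and were harvested 48 h after the second. No second condition was compared, so the results below describe levels and the spread between replicate cultures of 1 transfected line, and untransfected cells were not analysed here.

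In most of these families, ligand binding brings receptor molecules together, the kinase domains phosphorylate each other, and adaptor proteins such as GRB2 and SHC1 dock on the phosphorylated tails. EPH receptors differ in that their ligands, the ephrins, are bound to the surface of neighbouring cells. Several members, among them PTK7, RYK, EPHB6 and EPHA10, have a kinase domain that lacks normal catalytic activity and are thought to act through partner receptors. In basal breast cancer lines EPHA2 is a well-known abundant receptor, while the VEGF, angiopoietin, KIT and FLT3 receptors are best known from endothelial and blood cells.

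Gene totals were 68664126, 84880547 and 54512366 counts in replicates 1, 2 and 3. Markers of the mesenchymal breast line were high, with VIM at 4543 ± 159 TPM (transcripts per 1000000; SD, n = 3) and CD44 at 169 ± 3.44 TPM. The luminal markers ESR1 (0.012 TPM) and PGR (0.060 TPM) were close to 0, CDH1 was at 0.603 ± 0.229 TPM and EPCAM at 17.6 ± 1.23 TPM. Of 6 endothelial markers 2 were detected, ESAM at 177 ± 8.66 TPM and PECAM1 at 1.06 ± 0.178 TPM, whereas ERG had 0 counts in every library. The endothelial markers summed to between 168.8 and 184.5 TPM over the 3 libraries. Of the other marker sets, 3 of 6 fibroblast and mural, 1 of 6 leukocyte and mast cell, and 2 of 5 neural and glial genes were detected. The highest of each set were ACTA2 at 4.92 ± 0.431, LYZ at 13.9 ± 1.65 and MBP at 91.4 ± 3.58 TPM, in that order.

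A gene was called detected when it reached 1 CPM (count per 1000000 counts, scaled by the TMM method) in each library. By this rule 26 of the 48 receptors were detected (54.2%), beside 55.6% of all 22824 genes, so the share detected was near that of all genes. Levels between genes were compared as TPM, which divides by transcript length. The median level of the 26 detected receptors was 5.16 TPM, beside 23.1 TPM for all detected genes, and 6 of the 26 lay above that median. Over all 48 receptors the median log2(TPM + 1) was 0.87 ± 0.09 (SD, n = 3), beside 2.16 ± 0.01 over all genes with a length. A few receptors held most of the summed level: EPHA2 alone held 36.2 ± 0.94% of it, the 4 highest 69.9 ± 1.01% and the 10 highest 91.8 ± 0.17%.

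**Figure D1:**
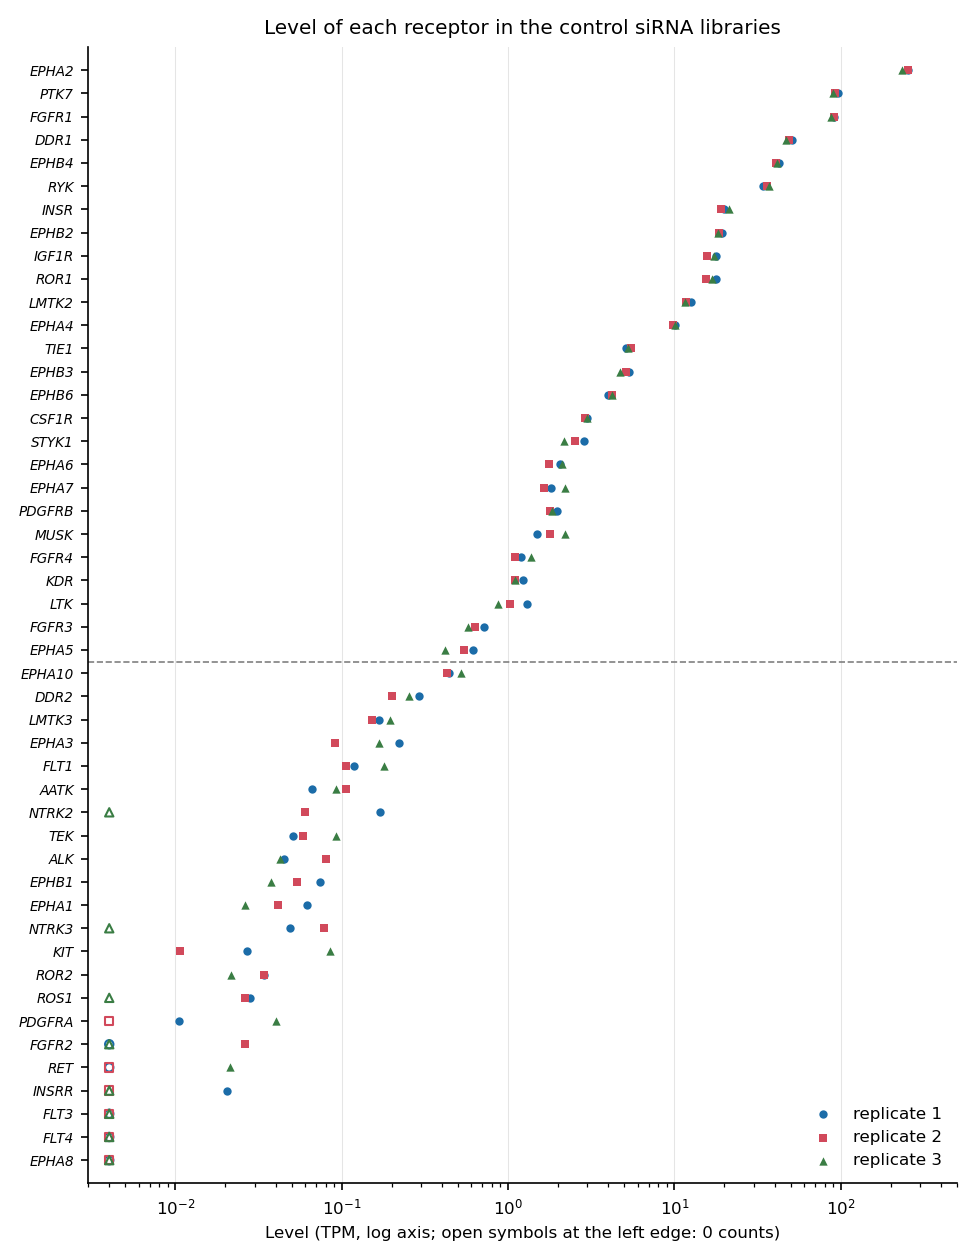
Level of each of the 48 receptors in TPM (log axis) in the 3 control siRNA libraries, ordered by mean, with open symbols at the left edge for 0 counts. The dashed line separates the 26 detected receptors from the 22 that did not reach 1 CPM in each library. EPHA2 stands apart at 247 TPM and the replicates of each high receptor lie close together.

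The promoters of detected and undetected receptors were compared for CG dinucleotides, since CG-rich promoters are common at widely used genes and CG-poor ones at tissue-restricted genes. RefSeq windows of 250 bases before to 50 after the start (GRCh38.p14, a later build than the hg19 of the files) were matched by symbol for 43 of the 48 receptors. The median was 23 CG per window in 24 detected receptors (quartiles 11.75 and 34.5) and 21 in 19 undetected receptors (quartiles 9 and 36). Over all genes matched, the median was 26 in 9341 detected genes and 7 in 5330 undetected genes, and 95.8% of all 27305 windows held at least 1 CG. A sequence is shown for the highest receptor (EPHA2), for the detected receptor with the fewest CG (TIE1) and for 2 undetected receptors with many CG (FGFR2 and FLT1). Each is written 5′ to 3′ on the strand of the gene, with every CG in capitals; the letters CG read the same on both strands, and no other motif was searched.
EPHA2 promoter, chr1:16156020-16156319, minus strand, 20 CG: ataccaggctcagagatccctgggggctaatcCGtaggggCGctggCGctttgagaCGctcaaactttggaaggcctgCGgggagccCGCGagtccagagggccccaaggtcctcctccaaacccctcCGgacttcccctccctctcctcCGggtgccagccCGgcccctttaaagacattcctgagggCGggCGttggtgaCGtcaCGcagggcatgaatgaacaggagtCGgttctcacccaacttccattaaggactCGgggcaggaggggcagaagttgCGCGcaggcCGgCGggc
TIE1 promoter, chr1:43300732-43301031, plus strand, 1 CG: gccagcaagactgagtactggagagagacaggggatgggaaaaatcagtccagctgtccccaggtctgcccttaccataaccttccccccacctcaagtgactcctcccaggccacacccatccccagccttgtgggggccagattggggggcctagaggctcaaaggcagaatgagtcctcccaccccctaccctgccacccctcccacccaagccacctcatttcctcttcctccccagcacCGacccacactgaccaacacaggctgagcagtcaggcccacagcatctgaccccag
FGFR2 promoter, chr10:121598395-121598694, minus strand, 52 CG: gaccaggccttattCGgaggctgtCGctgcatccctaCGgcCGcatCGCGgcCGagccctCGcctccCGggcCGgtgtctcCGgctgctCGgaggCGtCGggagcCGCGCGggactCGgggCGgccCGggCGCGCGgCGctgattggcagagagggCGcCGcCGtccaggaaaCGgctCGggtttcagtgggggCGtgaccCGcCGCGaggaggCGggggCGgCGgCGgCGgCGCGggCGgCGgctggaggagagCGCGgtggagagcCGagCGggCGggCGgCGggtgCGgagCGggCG
FLT1 promoter, chr13:28495079-28495378, minus strand, 33 CG: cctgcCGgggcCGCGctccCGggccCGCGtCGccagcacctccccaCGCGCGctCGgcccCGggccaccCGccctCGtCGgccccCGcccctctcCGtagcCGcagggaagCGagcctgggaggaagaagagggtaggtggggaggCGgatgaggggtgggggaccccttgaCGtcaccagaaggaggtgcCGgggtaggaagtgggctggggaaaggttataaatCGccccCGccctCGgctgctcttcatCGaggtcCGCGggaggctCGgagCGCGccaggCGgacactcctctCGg
TIE1, at 5.28 TPM, thus had 1 CG in its window, and FGFR2, with 4 counts in 1 library, had 52. TIE1 and FGFR2 were chosen for their counts of CG and EPHA2 for its level. FLT1 was an undetected receptor with many CG, although the undetected EPHA8, ROR2, RET, KIT and FLT3 had more. The 4 thus stand for no group.

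EPH receptors, the largest family of the class, held 48.6 ± 0.67% of the summed level of the 48 receptors (SD, n = 3), and 9 of the 14 were detected. EPHA2, a receptor for ephrin-A ligands, was at 255, 254 and 234 TPM in replicates 1, 2 and 3. It made up 74.5 ± 0.92% of the EPH level and 94.3 ± 0.45% of the EPHA level. EPHA4, which binds ephrins of both classes, followed at 10.1, 9.78 and 10.1 TPM. The other detected EPHA receptors, known mainly from the nervous system, were EPHA6 at 2.06, 1.76 and 2.10 TPM, EPHA7 at 1.81, 1.64 and 2.20 TPM, and EPHA5 at 0.618, 0.545 and 0.415 TPM. The EPHA class thus held 1 receptor at a high level and 4 that did not exceed 10.1 TPM in any library.

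Among EPHB receptors, which bind the transmembrane ephrin-B ligands, the level was spread over more members. EPHB4, the receptor best known from vein formation, was at 42.7, 40.9 and 41.5 TPM and made up 59.8 ± 0.43% of the EPHB level. EPHB2 was at 19.4, 18.5 and 18.4 TPM and EPHB3 at 5.36, 5.09 and 4.68 TPM. The pseudokinase EPHB6 was at 3.98, 4.23 and 4.24 TPM. EPHB1 had 10, 9 and 4 counts and was the EPHB receptor not detected.

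The 2 classes of EPH receptor differed in opposite ways by sum and by median. Summed, EPHA exceeded EPHB by 3.76-fold (262 ± 11.6 against 69.7 ± 1.52 TPM), a log2 difference of 1.91 ± 0.05 that was positive in 3 of 3 libraries. By the median log2(TPM + 1) of its members, EPHB was higher by 1.95 ± 0.04 (2.59 against 0.64), also in 3 of 3 libraries. Without the highest receptor of each class, EPHB exceeded EPHA by 0.90 ± 0.07 on the log2 scale of summed TPM, a ratio of 1.86. That last difference depended on length: with the longest annotated transcripts EPHB2 came to 7.87 ± 0.230 TPM, and the difference was -0.030 ± 0.083, positive in 1 of 3 libraries. At the main lengths, each of these differences was larger than its spread between libraries. For EPHA2 that length was the longest transcript of its symbol, 3964 bases, in both settings. The exact sign-flip permutation test over 3 libraries (two-sided) gave p = 0.25 for each, which is the smallest p it can give.

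**Figure D2:**
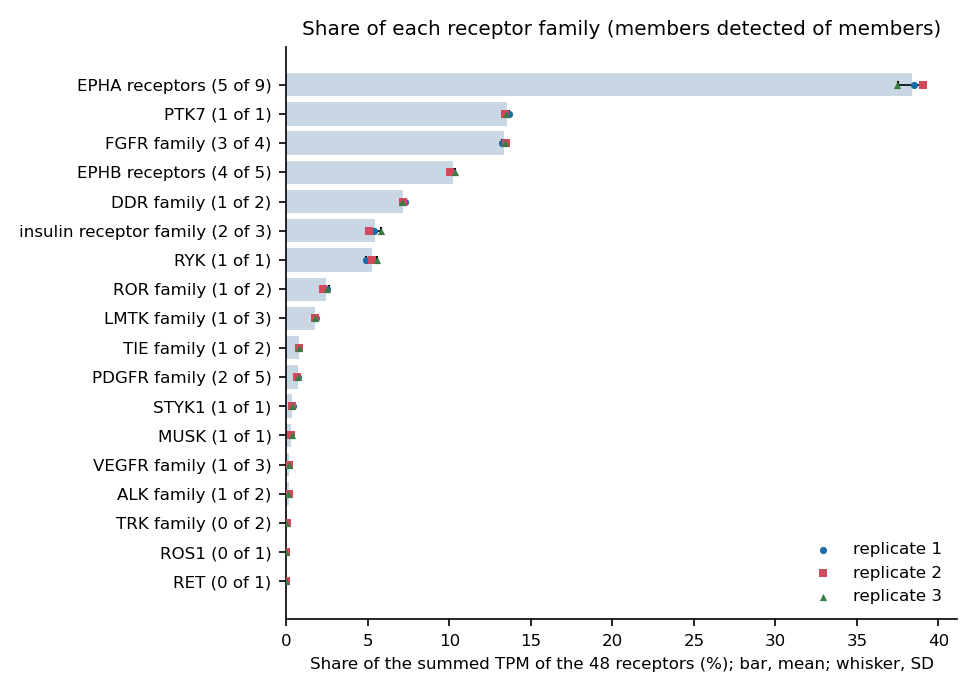
Share of the summed TPM of the 48 receptors held by each of 18 families or single receptors, with the mean as a bar, SD as a whisker (n = 3) and each library as a point; numbers in brackets are detected members of all members. EPHA receptors held 38.4%, PTK7 13.5%, the FGFR family 13.4% and EPHB receptors 10.2%.

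FGF receptors bind fibroblast growth factors together with heparan sulfate. FGFR1 was at 91.0, 90.6 and 87.2 TPM and made up 97.9 ± 0.13% of its family. FGFR4 was at 1.20, 1.10 and 1.37 TPM and FGFR3 at 0.721, 0.635 and 0.574 TPM, while FGFR2 had 0, 4 and 0 counts. The family was in this way carried by a single receptor, as the EPHA class was by EPHA2. EPHA2 exceeded FGFR1 by 2.76-fold, a log2 difference of 1.46 ± 0.04 found in 3 of 3 libraries. All EPH receptors together exceeded all FGF receptors by 3.63-fold, a log2 difference of 1.86 ± 0.02 (exact permutation p = 0.25 for both, the smallest possible). With the counts of all records of a gene added up, which counts a read once for each record it overlaps, both turned, to -1.67 ± 0.04 for EPHA2 against FGFR1 and -1.17 ± 0.03 for the families.

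Of the receptors for Wnt proteins, PTK7, RYK and ROR1 were detected and ROR2 was not. PTK7, a Wnt co-receptor of planar cell polarity, was at 95.7, 91.8 and 89.7 TPM, next to EPHA2 in the order. PTK7 exceeded FGFR1 in 3 of 3 libraries, by 0.04 ± 0.03 on the log2 scale, although their ranges over the libraries overlapped. The order turned with the length used: with the longest transcripts FGFR1 was at 105 ± 2.48 and PTK7 at 92.2 ± 3.03 TPM, a log2 difference of -0.19 ± 0.03, and by CPM it was -0.42 ± 0.03. RYK, which binds Wnt proteins through its WIF domain, was at 34.3, 36.2 and 36.8 TPM. ROR1, a receptor for Wnt5a, was at 17.7, 15.5 and 16.8 TPM, and its relative ROR2 had 4, 5 and 2 counts, at or under the floor. That floor was set at 3 read pairs, or 6 counts, equal to 0.0878, 0.0708 and 0.109 CPM in replicates 1, 2 and 3. It covers counting error alone. MUSK, the muscle receptor that answers agrin through LRP4, was at 1.49, 1.79 and 2.20 TPM.

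The collagen receptor DDR1 was at 50.9, 48.8 and 46.8 TPM when the 6 haplotype copies of its record were summed. How reads matching several copies were counted is not given in the sources used here, and the largest copy alone gave 12.1 ± 0.362 TPM. With that value DDR1 would lie beside LMTK2 in the order, below EPHB4 and RYK. DDR2, the other collagen receptor, was at 0.291, 0.200 and 0.255 TPM and was not detected.

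In the insulin receptor family INSR, the insulin receptor, was at 19.9, 19.0 and 21.4 TPM and IGF1R, the receptor for insulin-like growth factors, at 17.8, 15.7 and 17.2 TPM. INSR took 54.4 ± 1.37% of the family level, the lowest share of a leading receptor among the families with a detected member. INSRR had 3, 0 and 0 counts. The length used for INSR was that of its counted record, 4721 bases. With the longest annotated transcript, 8954 bases, INSR came to 13.1 ± 0.766 TPM and would lie below IGF1R.

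The kinase-like members were led by LMTK2, a lemur tail kinase, at 12.5, 11.8 and 11.5 TPM. LMTK3 was at 0.168, 0.151 and 0.195 TPM and AATK at 0.0662, 0.106 and 0.092 TPM, both under the detection line. STYK1, a short receptor-like protein with a kinase domain, was at 2.87, 2.53 and 2.17 TPM. LTK, a receptor for ALKAL proteins, was at 1.30, 1.03 and 0.866 TPM, and its relative ALK had 8, 18 and 6 counts.

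The TIE, VEGF and PDGF receptor families, best known from blood vessels, mural cells and blood cells, were low. TIE1, the orphan partner of the angiopoietin receptor, was the highest of them at 5.11, 5.49 and 5.25 TPM, while TEK, the angiopoietin receptor itself, had 7, 10 and 10 counts. CSF1R, the macrophage receptor for CSF1 and IL34, was at 2.999, 2.893 and 2.966 TPM. PDGFRB, the receptor of mural cells, was at 1.97, 1.78 and 1.85 TPM, and KDR, the main VEGF receptor of endothelium, at 1.23, 1.09 and 1.10 TPM. FLT1, a second VEGF receptor, was at 0.118, 0.106 and 0.180 TPM. Beside these values, the endothelial markers ESAM and PECAM1 were at 177 and 1.06 TPM, CDH5, VWF and CLDN5 were not detected and ERG had 0 counts. In RNA of a whole culture, few cells of a type and little RNA per cell cannot be told apart. The part of other cells in the low levels of TIE1, KDR, CSF1R and PDGFRB was not tested.

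The remaining receptors were at or near 0. FLT3, FLT4 and EPHA8 had 0 counts in all 3 libraries, and 10 of the 22 undetected receptors did not exceed 6 counts in any library. Beside those 3 and ROR2, FGFR2 and INSRR, these were EPHA1 (6, 5 and 2 counts), NTRK3 (3, 6 and 0), PDGFRA (2, 0 and 6) and RET (0, 0 and 2). For these 10 a level above the floor was not detectable at this depth. The other 12 exceeded the floor in at least 1 library. Among them the stem cell factor receptor KIT had 4, 2 and 10 counts, the neurotrophin receptor NTRK2 had 18, 8 and 0 and ROS1 had 6, 7 and 0, so each was above the floor in some libraries and not in others. EPHA10, at 1.01, 0.991 and 1.17 CPM, and DDR2, at 1.24, 0.862 and 1.08 CPM, missed the detection line in replicate 2 alone. EPHA3 was at 0.541, 0.224 and 0.401 CPM.

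Of the 25 pairs of neighbours in the order of detected receptors, 10 had overlapping ranges over the 3 libraries. These were PTK7 and FGFR1, INSR and EPHB2, IGF1R and ROR1, TIE1 and EPHB3, EPHA6 and EPHA7, EPHA7 and PDGFRB, PDGFRB and MUSK, FGFR4 and KDR, KDR and LTK, and FGFR3 and EPHA5. The 15 other neighbours did not overlap. In 7 of the 12 families with several members, a single receptor held at least 90% of the family level. The exceptions were the EPHB receptors, the insulin receptor family, the PDGFR family (CSF1R, 60.6 ± 1.03%), the VEGFR family (KDR, 89.5 ± 3.02%) and the TRK family, whose 2 members were not detected.

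The 48 receptors summed to 684 ± 18.4 TPM. The 4 EGFR family receptors summed to 116 ± 5.54 TPM, of which EGFR gave 84.1 ± 4.36 TPM, and the 5 TAM and MET receptors to 735 ± 43.5 TPM, of which AXL gave 586 ± 41.6 TPM. These sums are over unequal numbers of genes. Summed, the 48 receptors exceeded the EGFR family by 5.88-fold, a log2 difference of 2.55 ± 0.05 in 3 of 3 libraries. Against the TAM and MET receptors the log2 difference was -0.10 ± 0.05, negative in 3 of 3 libraries, and with records added up it turned to 0.45 ± 0.06. By the median log2(TPM + 1) the 48 receptors were lower than both groups, at 0.87 ± 0.09. The EGFR family was at 3.53 ± 0.09 and the TAM and MET receptors at 4.15 ± 0.05. Both tests of summed levels gave the smallest exact permutation p possible with 3 libraries, 0.25. EPHA2 at 247 ± 11.95 TPM thus lay between EGFR and AXL.

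The ligands of these receptors were taken as a list of 62 genes, of which 30 were detected, beside 55.6% of all genes. The highest ligand of the VEGF and PDGF receptor families, and that of MUSK, exceeded their receptors. The highest ligand of the EPHB, TRK and RET receptors, given below, also exceeded the highest receptor, with TRK and RET receptors undetected. VEGFA, the main endothelial growth factor, was at 362 ± 6.995 TPM, VEGFB at 62.9 ± 6.27 and VEGFC at 62.4 ± 1.56 TPM, with FIGF lowest at 0.063 TPM, beside 1.14 ± 0.0756 TPM for KDR. CSF1 was at 247 ± 13.7 TPM, FLT3LG at 29.2 ± 1.38 TPM and KITLG, the ligand of KIT, at 6.05 ± 0.288 TPM, while IL34 was at 0.226 TPM. PDGFC was at 53.9 ± 2.50 TPM and PDGFA at 15.6 ± 0.741 TPM, and PDGFB was lowest at 0.044 TPM. Agrin (AGRN), which acts on MUSK, was at 119 ± 6.77 TPM.

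The highest FGF and insulin-like ligands lay below their highest receptors. Of 18 FGF genes 3 were detected, led by FGF5 at 8.15 ± 0.483 and FGF1 at 1.67 ± 0.0582 TPM, with FGF4 at 0 counts, beside FGFR1 at 89.6 ± 2.09 TPM. FGF2 was at 0.973 ± 0.0891 TPM. Neither IGF2 (0.328 ± 0.0711 TPM) nor IGF1 (0.008 TPM) was detected, beside IGF1R at 16.9 ± 1.09 TPM. The genes in this list are those of 1 cell line, and ligands in the serum of the culture medium are not measured by RNA.

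Ephrins, the ligands of the EPH receptors, were detected in 7 of 8 cases. EFNB2, the partner of EPHB4, was at 52.8, 49.6 and 53.7 TPM, EFNB1 at 3.37 ± 0.157 and EFNB3 at 0.863 ± 0.164 TPM. In the ephrin-A class the levels were closer together, with EFNA5 at 13.0 ± 0.220, EFNA4 at 11.4 ± 0.769, EFNA1 at 7.59 ± 0.842 and EFNA3 at 2.49 ± 0.150 TPM, and EFNA2 had 0 counts. The highest receptor thus belonged to the EPHA class and the highest ephrin to the ephrin-B class.

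Other ligand groups followed no single pattern. BDNF, a ligand of NTRK2, was at 10.2 ± 1.04 TPM, NTF3 at 1.77 ± 0.350 TPM and NTF4, the lowest, at 0.183 TPM. WNT5B was at 7.33 ± 0.474 and WNT5A at 4.44 ± 0.216 TPM. The angiopoietins were low, with ANGPT1 at 0.899 ± 0.247, ANGPT2 at 0.699 ± 0.152 and ANGPT4 at 0.086 TPM. Of the RET ligands ARTN was at 5.33 ± 0.304 and NRTN at 1.52 ± 0.0242 TPM, and GDNF had 0, 2 and 0 counts. Of the collagens that DDR receptors bind, COL4A1 was at 48.3 ± 1.14, COL1A1 at 6.36 ± 0.780 and COL3A1 at 0.092 TPM. Midkine (MDK), which has been linked to ALK, was at 110 ± 6.32 TPM and pleiotrophin (PTN) at 18.2 ± 1.41 TPM, with FAM150A, an ALKAL gene, at 0 counts.

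**Figure D3:**
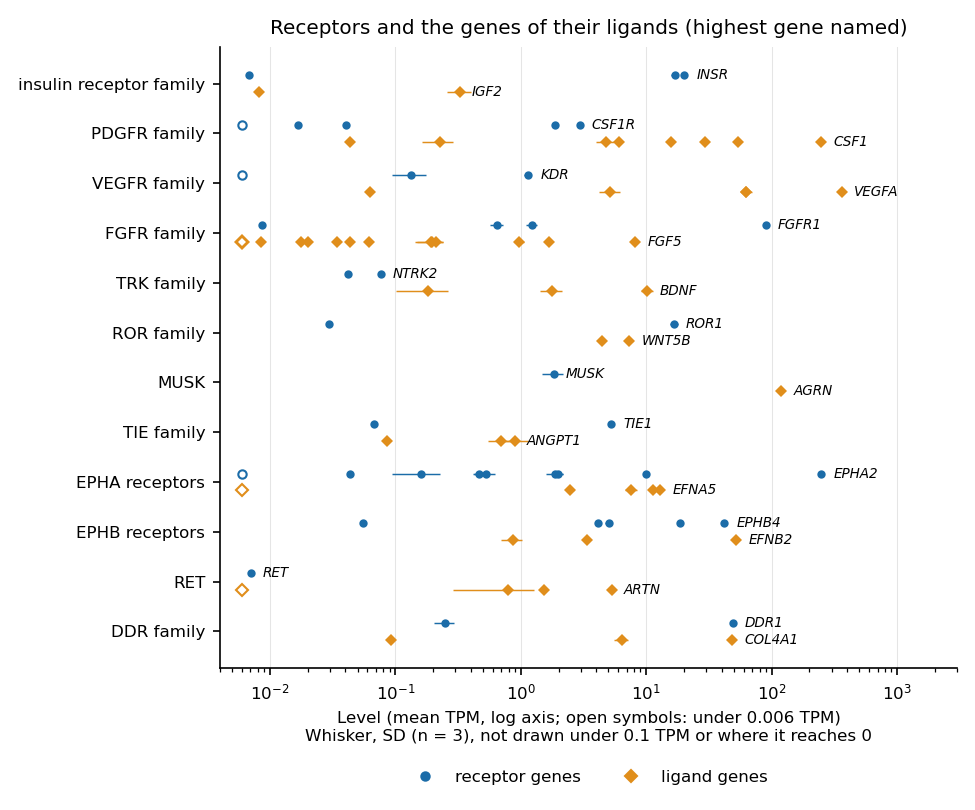
Mean level in TPM (log axis) of receptor genes (circles) and of the genes of their ligands (diamonds) in 12 families or single receptors, with the highest gene of each named; whiskers are SD over 3 libraries, not drawn under 0.1 TPM or where they reach 0. The highest ligand exceeds the highest receptor for the VEGFR, PDGFR and TRK families, EPHB receptors, MUSK and RET. The highest receptor exceeds the highest ligand for the FGFR, insulin receptor, ROR and TIE families and EPHA receptors. In the TIE family that receptor is the orphan TIE1. TEK, the angiopoietin receptor, was at 0.067 TPM, below ANGPT1 at 0.899 TPM. DDR1, with its copies summed, and COL4A1 lie close together.

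Of 13 co-receptors and decoys 7 were detected, beside 55.6% of all genes. The neuropilin NRP1, a VEGF co-receptor, was at 183 ± 3.98 TPM and FGFRL1, an FGF receptor relative without a kinase domain, at 96.2 ± 3.35 TPM. LRP4, the agrin-binding partner of MUSK, was at 2.13 ± 0.0757 TPM, and GFRA2, a co-receptor of RET, was at 0 counts. All 18 adaptors and effectors on the list were detected, from PTPN11 at 179 ± 9.68 and SHC1 at 140 ± 3.64 TPM down to GAB1 at 4.06 ± 0.664 TPM. Of 15 negative regulators 14 were detected, the phosphatases PTPRJ at 197 ± 5.65 and PTPRF at 174 ± 9.05 TPM being highest and GRB14 lowest at 0.203 ± 0.0546 TPM.

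The spread between replicate cultures was tested for each gene as the deviance of an edgeR fit with a common mean against counting noise, with Benjamini-Hochberg adjustment over 14421 genes and a threshold of 0.05. Of the 48 receptors 32 could be tested, and 14 varied beyond counting noise (43.8%), beside 53.1% of all genes tested. More genes had 2 counts than 1 count in each library (712 against 485 in replicate 1), and whether both mates of a pair were counted is not given in the sources used here. With the deviance divided by 2, which allows for both mates, 6 receptors varied (18.75%), beside 28.4% of all genes. With a spread between cultures of 5% allowed (dispersion 0.0025), 0 varied in edgeR, beside 1.1% of all genes. In that setting 5 receptors had an unadjusted p under 0.05, for which no share over all genes was counted. By adjusted p, receptors were not called more often than the background in any of these settings.

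The 6 receptors called with the deviance divided by 2 were EPHA2, PTK7, FGFR1, DDR1, IGF1R and ROR1, and the sizes were small. EPHA2 was at 425, 427 and 384 CPM in replicates 1, 2 and 3, a range of 1.11-fold (edgeR adjusted p = 4.18e-18 with the divided deviance). PTK7 was at 172, 166 and 159 CPM (1.08-fold, edgeR adjusted p = 0.00197) and FGFR1 at 226, 227 and 213 CPM (1.06-fold, edgeR adjusted p = 0.00213). These 3 were lowest in replicate 3. DDR1 was at 82.61, 79.96 and 74.86 CPM (edgeR adjusted p = 0.0133), but with the largest haplotype copy alone and the undivided deviance it was not called (edgeR adjusted p = 0.277). IGF1R was at 91.5, 81.4 and 87.3 CPM (1.12-fold, edgeR adjusted p = 0.000112) and ROR1 at 43.4, 38.3 and 40.5 CPM (1.13-fold, edgeR adjusted p = 0.011). IGF1R and ROR1 were both lowest in replicate 2 and highest in replicate 1.

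The other 8 receptors were called with the deposited counts and not with the divided deviance. They were INSR (39.6, 38.1 and 41.9 CPM), LMTK2 (47.0, 44.6 and 42.8 CPM), STYK1 (3.61, 3.22 and 2.70 CPM), EPHA7 (5.02, 4.58 and 5.996 CPM), MUSK (1.73, 2.09 and 2.51 CPM), LTK (1.67, 1.33 and 1.09 CPM), EPHA5 (2.15, 1.91 and 1.42 CPM) and EPHA3 (0.541, 0.224 and 0.401 CPM). LTK, EPHA5 and MUSK had the widest ranges among detected receptors, at 1.53, 1.51 and 1.46-fold. Of the 14 varying receptors 8 were lowest in replicate 3, 5 in replicate 2 and 1 in replicate 1, beside 41.6%, 27.8% and 30.6% of all varying genes. The count depended on the libraries kept. Without replicate 1, 2 or 3 the count was 7, 12 or 4, and with the divided deviance 4, 4 or 2. No share over all genes was counted for these settings. Of the 6 named above, EPHA2, FGFR1 and IGF1R kept the divided-deviance call without replicate 1, DDR1, EPHA2, FGFR1 and PTK7 without replicate 2, and IGF1R and ROR1 without replicate 3. The median coefficient of variation of the 26 detected receptors was 5.49%, from 1.16% for EPHA4 to 21.1% for LTK, beside 5.04% over all detected genes.

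**Figure D4:**
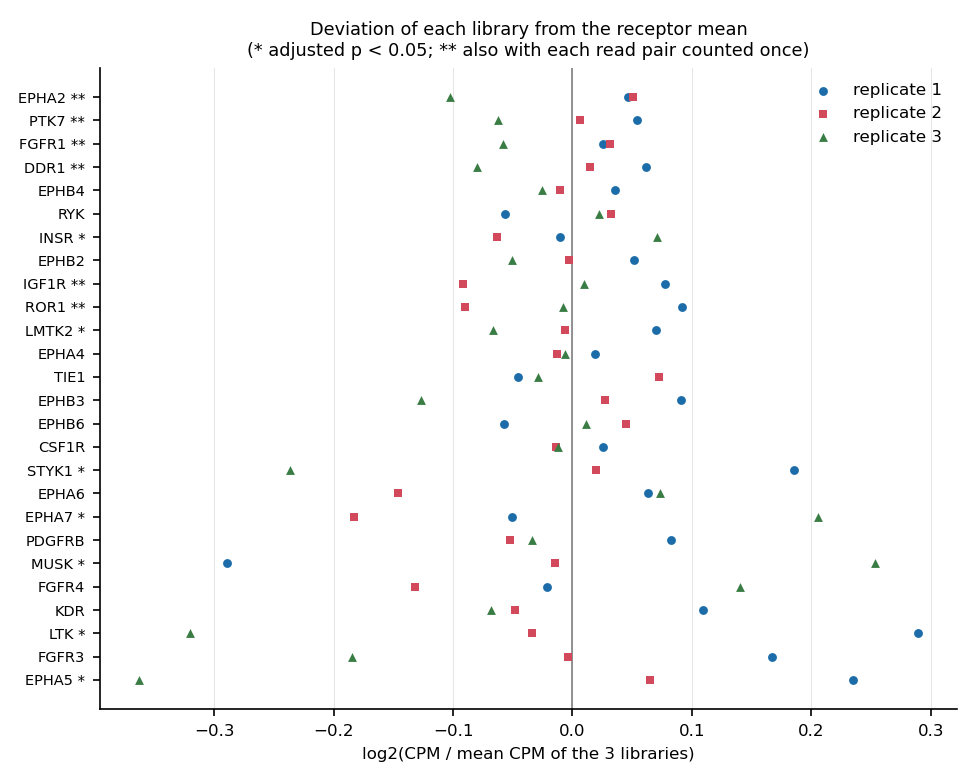
Deviation of each library from the mean of the 3 libraries for the 26 detected receptors, as log2 of CPM over mean CPM, with receptors ordered by level. Single stars mark receptors that varied beyond counting noise and double stars those also called with the deviance divided by 2; the widest ranges are those of LTK, EPHA5 and MUSK, 3 receptors of low level.

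The files count reads for each RefSeq transcript record, so a record that lacks exons that hold reads falls below the record used for the gene. Of the 26 receptors with several records, 19 had a mean of at least 10 counts, and in 14 of these the lowest record reached at least 80% of the counted one. The 5 others were FLT1, EPHA10, EPHA6, EPHA3 and ROR1. How reads at exon borders were assigned is not given in the sources used here, so these values locate reads and do not measure isoforms.

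For FLT1 the 3 short records, which encode soluble forms of the receptor without the kinase domain, had 1, 0 and 0 counts, whereas the full-length record of 30 exons had 24, 27 and 29. The shortest of them, of 12 exons, shares 1803 bases with the full-length record. The few FLT1 reads thus lay almost wholly in exons that the soluble records lack. For EPHA10 the record of 3 exons had 0 counts in each library, while the remaining 4575 bases of the counted record held 69, 84 and 64 counts, or 15.08, 18.36 and 13.99 per kb. For EPHA6 a record of 12 exons that shares 1053 bases with the counted one had 12, 10 and 10 counts, beside 223, 242 and 180 counts over the other 2918 bases. That is 7.6, 6.3 and 6.3 counts per kb on the short record and 76.4, 82.9 and 61.7 per kb elsewhere, so the reads of EPHA6 lay mostly outside the shared exons in every library.

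ROR1 differed, with a larger part of its counts on a short record. Its short record of 7 exons had 1508, 1759 and 1110 counts, 51.6 ± 2.27% of the counted record. Per kb it held 654, 763 and 482 counts, beside 341, 347 and 260 on the rest of the counted record. The short record spans 2305 bases and shares 1549 of them with the counted record. Any reads on its other bases were also subtracted from the rest, which may be too low. Whether reads were denser on the short record is therefore uncertain. EPHA3 had 13, 2 and 11 counts on its short record and 37, 19 and 22 on the counted one, too few to place. For PTK7 the shortest record held 88.0 ± 0.86% of the counted one, and the 471 bases it lacks were covered at 3183, 3635 and 2042 counts per kb against 2699, 3260 and 2039 on the record itself.

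**Figure D5:**
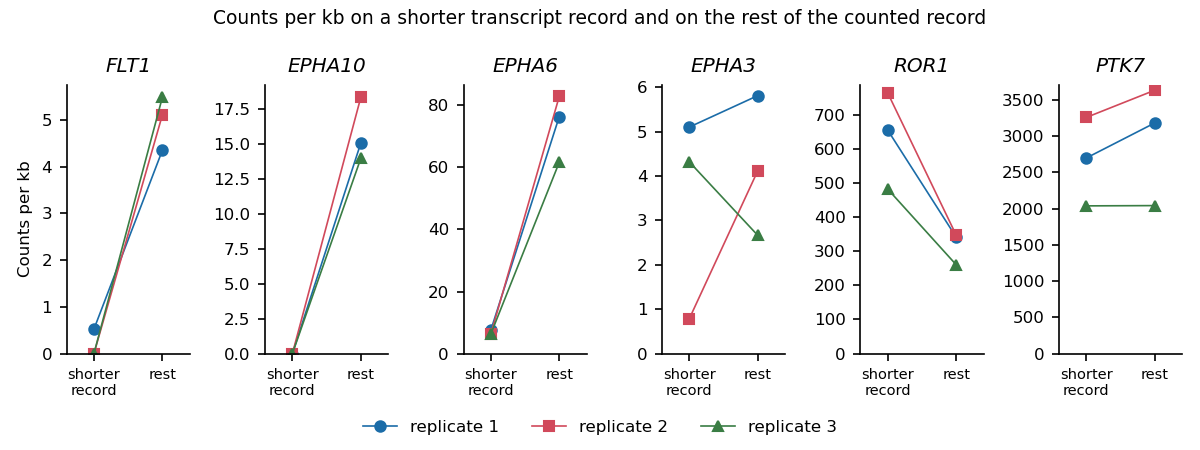
Counts per kb on a shorter transcript record and on the rest of the counted record for 6 receptors, with a line for each library and an axis of its own for each gene. FLT1, EPHA10 and EPHA6 have few or no counts on the shorter record in any library, and the lines of EPHA3 cross. ROR1 shows more on the shorter record than on the rest, but its rest may be too low. The shorter record of ROR1 holds bases that the counted record lacks.

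Reads of overlapping genes could add to a receptor, for a gene on the same strand in any case and for one on the opposite strand where strand was not used in counting, which is not stated for these files. Of the 48 receptors 8 share exon bases with another gene (GENCODE 29). The largest overlap was that of PDGFRA with a gene on the same strand, at 23.3% of its length, and PDGFRA had 2, 0 and 6 counts. EPHA5 shares 4.63% of its length with its antisense gene EPHA5-AS1 and EPHB4 shares 1.59% with SLC12A9, so these overlaps are short beside the length measured.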

How the data were processed

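The authors deposited, per the file headers and values, raw counts per RefSeq transcript record for 3 libraries, with no normalization. Per the labels, the library kit was TruSeq and both ends were sequenced for 100 bp, and the submitters' processing notes name FastQC, TopHat2, Cufflinks and hg19; versions, the counting tool, strand and what was done with multi-hit reads are not given in the sources used here.

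From the 42269 records per library, copies of a record were summed and a gene's count was its largest record. Unnamed records were looked up by identifier; the 619 left unmatched held 0.952%, 0.959% and 0.944% of the record totals. TPM used GENCODE 29 lengths, that of the counted record where it was matched. Among the receptors, EPHA2, DDR2 and PDGFRA took the longest transcript of the symbol and FGFR3 the length of another record. Library sizes (TMM) and the variation test came from edgeR 4.0.16 in R 4.3.3, after filterByExpr, with dispersion 0 and a chi-square of 2 degrees of freedom; DESeq2 1.42.0 size factors were an alternative. Python 3.11.15, numpy 2.4.6, pandas 2.3.3 and matplotlib 3.10.9 made the tables and plots. The variation test was also run on simulated counts with counting noise alone and changes planted in some genes. These held neither paired mates nor a spread between cultures.

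The members and lists were chosen with earlier results of these data known, and the haplotype copies, the 2 receptor groups used for comparison and the divided deviance without a library were added after seeing the data. Named were all members, the 2 highest genes and the lowest gene of each list, all ephrins, VEGFA, KITLG and markers. Promoters are RefSeq's. Protein sequences and the other arm of the study were not analysed here, and 1 ligand gene is not reported here.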

Additional observations from a re-analysis of the deposited data

How the results depend on the processing

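Receptors detected numbered 26 to 28 under the alternatives tried except at 5 CPM, where 15 were detected. Without each library in turn the count was 26 to 28. Receptors varying between libraries fell from 14 to 6 with the deviance divided by 2 and to 0 with dispersion 0.0025, and ranged from 4 to 12 without each library (from 2 to 4 with the divided deviance). With DESeq2 size factors, unscaled totals, no filter, summed records or the largest copy the count was 13 to 17. Shares over all genes were counted at 1 CPM, for the main variation test, with the divided deviance and with dispersion 0.0025, as given above. For the other settings no share over all genes was counted, so these counts cannot be set against the background.

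The EPH share of 48.6% was 43.0% without length (CPM), 17.9% with records summed, 51.0% with the longest transcript and 51.3% with the largest copy, and 48.3 to 48.9% without each library. The FGFR share of 13.4% was 16.9%, 40.4%, 14.2% and 14.1% under the same 4 settings, and 13.3 to 13.4% without each library. Summing records counts a read once for each record it overlaps, and FGFR1 has 9 records, so FGFR1 then exceeds PTK7, DDR1 and EPHA2, in that order. The EPHB minus EPHA median difference of 1.95 was 1.82 by CPM, 1.23 with records summed, 2.10 with the longest transcript and 2.96 with a pseudocount of 0.1, and 1.94 to 1.98 without each library. Its direction held in all of these.

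Of the log2 differences of summed levels, EPHA minus EPHB (1.91) was 1.57 with records summed and 2.38 with the longest transcript. EPHA2 minus FGFR1 (1.46) was 0.89 by CPM, -1.67 with records summed and 1.54 with the longest transcript, and EPH minus FGFR (1.86) was 1.34 by CPM and -1.17 with records summed. PTK7 minus FGFR1 (0.04) was -0.42 by CPM, -1.17 with records summed and -0.19 with the longest transcript. EPHB without EPHB4 minus EPHA without EPHA2 (0.90) was 0.20, 1.57 and -0.030 under those 3 settings. The receptors minus the EGFR family (2.55) was 1.68, 3.09 and 2.41, and 2.47 with the largest copy. The receptors minus the TAM and MET receptors (-0.10) was 0.45 with records summed, -0.19 with the longest transcript and -0.18 with the largest copy. Without each library these 7 kept their direction.

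Among the 26 detected receptors the share of the summed level moved by over 1.5 times for 7 by CPM, 16 with records summed, 3 with the longest transcript (RYK, INSR and EPHB2, all lower) and 1 with the largest copy (DDR1). With the longest transcript RYK was at 24.6 ± 0.900 and EPHB2 at 7.87 ± 0.230 TPM. No paired analysis was possible because there is 1 group. With 3 libraries the two-sided exact sign-flip test cannot reach a p below 0.25. Counts of 6 or fewer lie at or under the floor, which was set by choice, and were not told apart from 0 here.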
